A study of Arabidopsis thaliana with 14 samples.

Results

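The narrow H3K4me3 peaks of the chromosome arms in transgenic wild type (TWT) seedlings are 339 of the 15540 H3K4me3 peaks that the authors called in 1 TWT library. They were chosen by 3 values measured in the TWT chromatin libraries. A member is under 800 bp wide, its midpoint lies in a bin of 1 Mb on chromosomes 1 to 5 of which H3K9me2 peaks cover under 14%, and it does not overlap an H3K27me3 peak. The rule therefore fixes the width of the members, the low H3K9me2 cover of their 1 Mb bins and their lack of H3K27me3. These are given as a description only.

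Whole seedlings of Arabidopsis thaliana, ecotype C24, were 10 days old and untreated, and a fen1 mutant was compared with TWT as its control. The labels used here name neither the transgene of TWT nor the kind of fen1 mutation. FEN1 encodes the flap endonuclease, which trims DNA flaps when DNA is copied or repaired. The authors' deposited table gave its RNA 22.7 FPKM (fragments adjusted for gene length and library size) in fen1 and 14.5 FPKM in TWT (log2 fold change 0.65, q = 0.00462), and FEN1 carried an arm H3K4me3 peak of over 800 bp and no narrow one. The series holds 2 fen1 and 2 TWT libraries of RNA, and of chromatin 1 library per genotype for each of H3K27me3, H3K4me3, H3K9me2, total H3 and the input. The values used here are the 3 TWT peak lists and the authors' deposited table of 1114 genes whose RNA differed, with 1 value per genotype. The fen1 chromatin libraries were not analysed here, so no peak was compared between genotypes, and read depth is unknown.

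H3K4me3, trimethylation of lysine 4 on histone H3, is written by Trithorax-type methyltransferases and in plants lies over the start and the first part of transcribed genes. H3K27me3 is the mark of Polycomb silencing, and H3K9me2 marks silent heterochromatin, which in Arabidopsis is gathered round the centromeres. A peak is a stretch where the peak caller found more reads than it took as background, so its width depends on how far the mark spreads and also on how many reads were recovered.

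Of the 15504 H3K4me3 peaks on chromosomes 1 to 5, 402 were under 800 bp wide. Of these, 347 lay in arm bins, 55 lay in bins with more H3K9me2, and 8 of the 347 touched an H3K27me3 peak and were dropped. The 96 arm bins with an H3K4me3 peak held 13902 peaks free of H3K27me3, so the members are 2.44% of them (exact Clopper-Pearson 95% interval 2.19 to 2.71%, which like all such intervals here covers counting error only). The other 13563 are called broad arm peaks below. Narrow arm peaks were found in 83 of the 96 arm bins, with at most 11 in a bin, and they covered 232369 bp in all.

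The members had a median width of 710 bp, with 90% of them between 491 and 794 bp, and the broad arm peaks had a median width of 1390 bp. Widths did not fall into separate groups at the limit. There were 74 arm peaks of 700 to 749 bp, 111 of 750 to 799 bp, 167 of 800 to 849 bp and 178 of 850 to 899 bp, so the limit runs through a continuous distribution. The widest members, among them a peak at chromosome 4, 485578 to 486376 (TAIR10), were 799 bp wide. Its score was 91.6, and the other 2 widest members that the naming rule gives scored 248 and 55.7. The 3 narrowest peaks outside the limit were 801 bp wide and scored 355, 112 and 1025. The narrowest member of all, 356 bp at chromosome 3, 10448369 to 10448724, had a score of 52.4.

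The score is the value that the authors' peak caller gave each peak, with a lowest value of 50.1 here. The sources used here do not define it, so scores only rank peaks within the list. They come from the same library as the width and describe the members without testing anything. Narrow arm peaks mostly had low scores. Their median score was 139, with quartiles of 74.7 and 281, and the broad arm peaks had a median of 1287, with quartiles of 676 and 2039. The share of arm peaks that were narrow was 25.8% at scores of 50 to 100, 12.7% at 100 to 200, 5.70% at 200 to 500, 1.1% at 500 to 1000 and 0.0716% above 1000. Low-scoring peaks were not all narrow, since 363 of the 489 arm peaks that scored under 100 were broad.

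**Figure D1:**
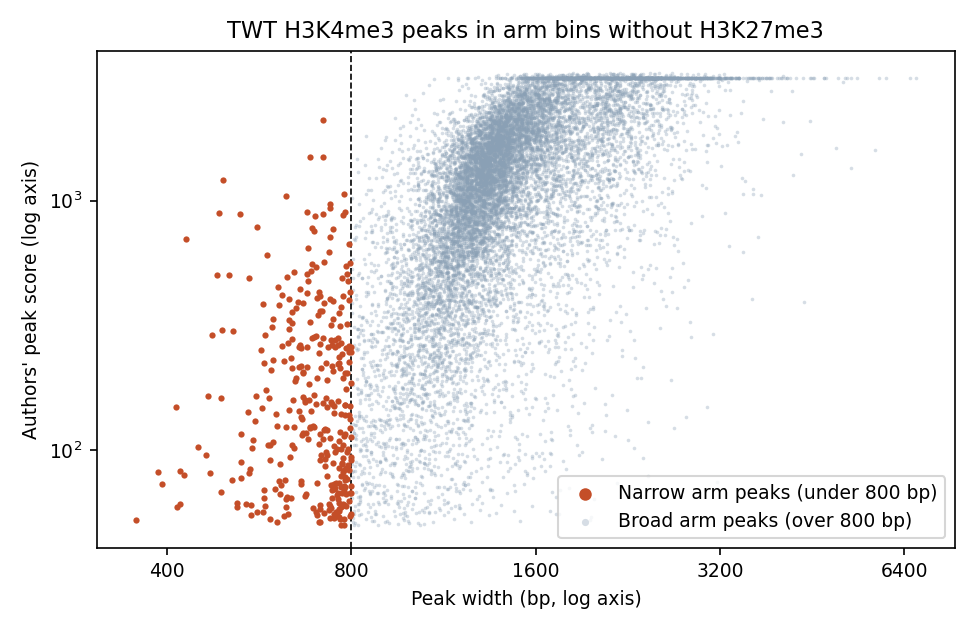
Width (x axis, bp, log axis) and the authors' score (y axis, log axis) of the 339 narrow and 13563 broad TWT H3K4me3 peaks in arm bins without H3K27me3, 1 point per peak, with the limit of 800 bp dashed. The narrow peaks continue the lower edge of the cloud of broad peaks, and 6 of them score above 1000.

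Within the members, score did not follow width. The median score was 99.4 for the 20 peaks under 500 bp, 110 for the 43 peaks of 500 to 599 bp, 189 for the 91 peaks of 600 to 699 bp and 116 for the 185 peaks of 700 to 799 bp. The interquartile ranges of these classes overlapped throughout, at 77.8 to 293, 72.7 to 241, 116 to 345 and 71.0 to 262.

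Few members reached the scores usual for broad arm peaks. A score of at least 500, still below the lower quartile of the broad peaks (676), was reached by 36 members and a score above 1000 by 6. The highest-scoring member, at chromosome 5, 5935675 to 5936394, was 720 bp wide and scored 2106, above the median of the broad peaks, and it lay 29 bp from another narrow peak with a score of 431. The next, at chromosome 1, 1142417 to 1143102, scored 1494 and lay 758 bp from a broad peak with a score of 2652. At chromosome 5, 3353443 to 3354162, a peak of 720 bp scored 1492, more than its broad neighbour 1106 bp away, which scored 983. The peak at chromosome 5, 19661307 to 19661800, was only 494 bp wide, scored 1210 and stood 6203 bp from the nearest other H3K4me3 peak, which scored 262. The fifth, at chromosome 1, 24385637 to 24386413, scored 1064. None of these 5 overlapped a gene of the authors' deposited table, so no RNA value can be set beside them.

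Narrow peaks made up a larger share of the H3K4me3 peaks where H3K9me2 peaks covered more of the 1 Mb bin. The rule set only the ceiling of 14% on the H3K9me2 cover of a bin, and below it the share of peaks that were narrow was 2.04% (1.78 to 2.33%) where the cover was under 2%. It was 3.08% (2.43 to 3.83%) at a cover of 2 to 5% and 4.80% (3.47 to 6.46%) at 5 to 10%. A single bin had a cover of 10 to 14%, with 7 narrow peaks among 54 (13%, 5.37 to 24.9%). Above the ceiling, among peaks that the rule leaves out, 52 of 807 peaks without H3K27me3 were narrow (6.44%, 4.85 to 8.36%). No test was made of this order, because peaks of 1 library are not replicates and neighbouring bins share their chromosome.

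Scores moved with the cover too. The median score of arm peaks was 1277 at a cover under 2%, 1198 at 2 to 5% and 1154 at 5 to 10%, and the arm peaks per bin were 157, 125 and 107 in the same classes. The narrow peaks per bin went the other way, at 3.19, 3.85 and 5.12. Among peaks that scored at least 100, an alternative added after the data were seen, the share of narrow peaks kept its order, at 1.24%, 2.39% and 3.3%. Chromosome by chromosome, the share at a cover of 5 to 14% was above that at a cover under 2% on all 5 chromosomes, at 5.94% against 2.37% on chromosome 1, 2.15% against 1.40% on chromosome 2, 4.28% against 1.13% on chromosome 3, 10.0% against 2.22% on chromosome 4 and 8.12% against 2.69% on chromosome 5. The class of 5 to 14% is a single bin on chromosome 1 and on chromosome 4, 2 bins on chromosomes 2 and 5, and 3 bins on chromosome 3, so the order on each chromosome rests on 1 to 3 bins. On chromosomes 1, 2 and 4 it holds only 6, 5 and 11 narrow peaks, and the intervals overlapped on chromosomes 1 and 2. The middle class was not in order there, with 2.02% on chromosome 1 and 0.389% on chromosome 2.

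The chromosomes themselves differed in how many narrow peaks they carried. Chromosome 5 held 110 among 3406 arm peaks without H3K27me3 (3.23%, 2.66 to 3.88%), and chromosome 2 held 27 among 1992 (1.36%, 0.895 to 1.97%). Chromosomes 1, 3 and 4 had 87 (2.37%), 54 (1.91%) and 61 (3.04%). The number of arm peaks per bin differed little, from 141 on chromosome 1 to 149 on chromosome 3, and so did their median score, from 1232 on chromosome 5 to 1305 on chromosome 3. The narrow peaks of chromosome 5 also had the highest scores, with a median of 199, and those of the other chromosomes had medians of 114 to 140. The richest bin was 6000001 to 7000000 of chromosome 4, with 11 narrow peaks among 110, which is the whole class of 5 to 14% cover on that chromosome. Next were 16000001 to 17000000 of chromosome 5, with 10 among 152, and 22000001 to 23000000 of chromosome 1, with 10 among 120. The H3K9me2 cover of these 2 bins was only 0.976% and 0.965%, so they go against the order by cover.

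**Figure D2:**
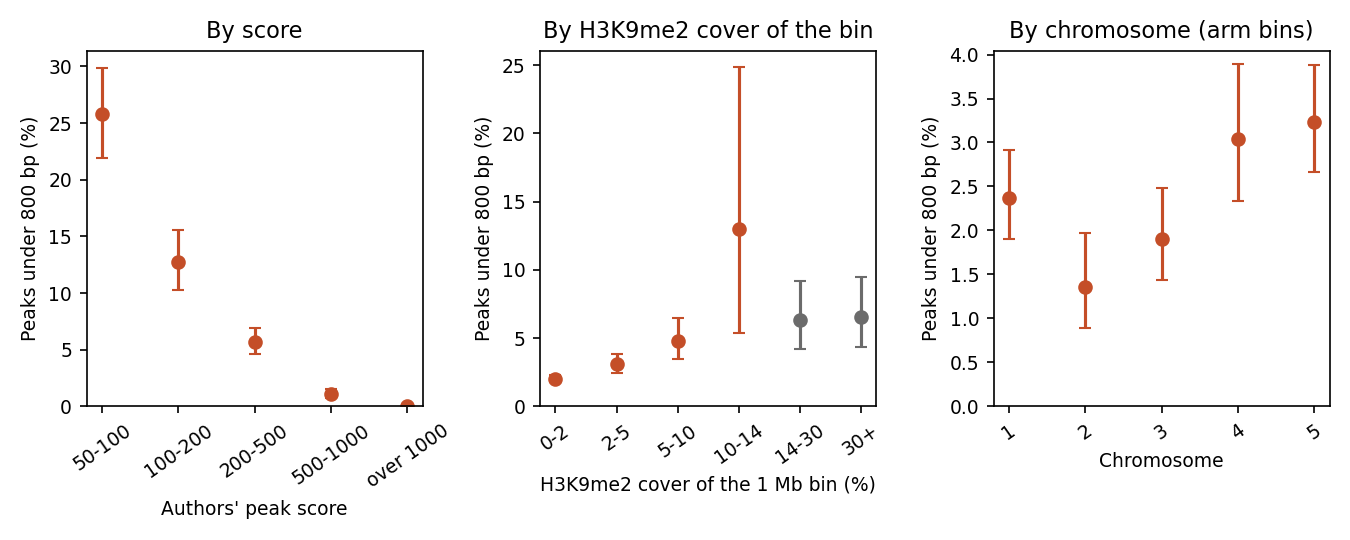
Share of H3K4me3 peaks without H3K27me3 that are under 800 bp (y axis, %), by the authors' score, by the H3K9me2 cover of the 1 Mb bin and by chromosome, with exact Clopper-Pearson 95% intervals; grey points are bins outside the arm rule. The share falls with score from 25.8 to 0.0716%, is higher at 5 to 10% cover (4.80%) than under 2% (2.04%), and is 3.23% on chromosome 5 and 1.36% on chromosome 2.

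Narrow arm peaks lay very close to another H3K4me3 peak, or far from any, in larger shares than broad arm peaks. The gap to the nearest other H3K4me3 peak was under 200 bp for 42 members (12.4%, 9.08 to 16.4%) and for 770 broad peaks (5.68%, 5.29 to 6.08%). It was 5000 bp or more for 62 members (18.3%, 14.3 to 22.8%) and for 1543 broad peaks (11.4%, 10.8 to 11.9%). The medians, 2.12 kb for narrow and 1.74 kb for broad peaks, hide that difference at both ends. Among peaks that scored at least 100, the share with a gap under 200 bp was 11.3% for narrow and 5.64% for broad peaks. Width and spacing come from the same peak calls, so they are not independent measures, and no test was made.

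The 42 close members lay in 35 pairs with their nearest neighbours, 1 to 199 bp apart with a median gap of 71 bp. The nearest neighbour was a broad arm peak for 27 of them and another member for 14. The broad neighbour scored higher in 22 of those 27 cases, with a median ratio of 5.99 to the member's score and a range of 0.117 to 54.8. Taken across the gap, a member and its neighbour spanned a median of 1703 bp. Spans were taken once per close member, so a pair made of members counted for each of them. Where the neighbour was a broad arm peak the median span was 1951 bp, which includes the whole of that broad peak. Where the neighbour was another member the median span was 1109 bp, below the median width of broad arm peaks, 1390 bp.

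The 62 isolated members, at least 5000 bp from any other H3K4me3 peak, had a median score of 158, the close members 143 and those in between 123. The isolated members lay nearer to Polycomb chromatin than those in between. A median of 2.71 kb separated them from the nearest H3K27me3 peak, against 7.41 kb for the 235 members with gaps of at least 200 and under 5000 bp, and 64.5% of them (51.3 to 76.3%) had an H3K27me3 peak within 5000 bp. Isolated broad peaks showed the same, with a median of 3.5 kb and 61.7% (59.2 to 64.1%), so this is not particular to narrow peaks. The close members had an H3K27me3 peak within 5000 bp in 22 of 42 cases (52.4%, 36.4 to 68.0%), at a median of 4.49 kb. That interval overlapped both that of the isolated members and that of the members in between (36.2%, 30.0 to 42.7%). Among members, nearness to H3K27me3 was thus not limited to the isolated ones. Close broad peaks had an H3K27me3 peak within 5000 bp in 256 of 770 cases (33.2%, 29.9 to 36.7%), at a median of 8.35 kb.

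Over all members the nearest H3K27me3 peak was a median of 6.20 kb away and the nearest H3K9me2 peak 34.1 kb away. For broad arm peaks the medians were 6.93 kb and 48.0 kb. An H3K9me2 peak overlapped 0 of the 339 members (0%, 0 to 1.08%) and 31 of the 13563 broad peaks (0.229%, 0.155 to 0.324%), and no difference was detectable at these counts.

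**Figure D3:**
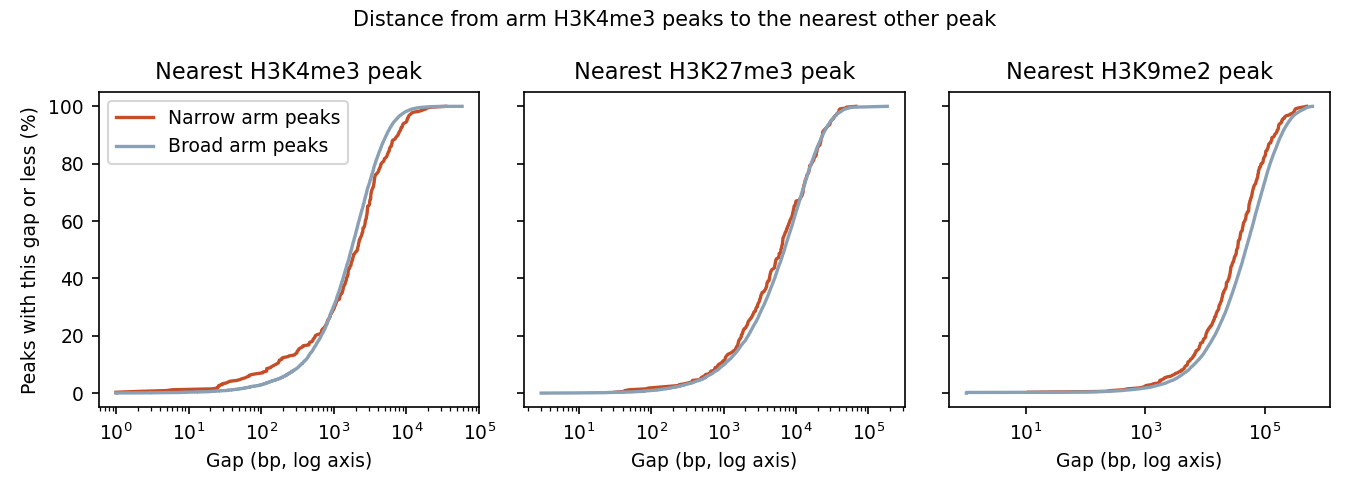
Cumulative share of narrow (orange) and broad (blue) arm H3K4me3 peaks (y axis, %) by the gap to the nearest other H3K4me3 peak, H3K27me3 peak and H3K9me2 peak (x axes, bp, log axes). For H3K4me3 the curves cross, with 12.4% of narrow and 5.68% of broad peaks under 200 bp, and for H3K9me2 the narrow curve runs to the left, with medians of 34.1 and 48.0 kb.

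The RNA comparison of fen1 with TWT asked which transcripts depend on FEN1, and its table gives positions for 1114 genes, all called by the authors at q under 0.05. That is 5.53% of the 20132 genes that the p and q values imply were tested, with 3.40% called higher and 2.14% called lower. A narrow arm peak overlapped 13 of these genes, and 8 of them rose and 5 fell in fen1. Genes that were tested and not called have no position in the table, so these 13 say nothing of how often a gene with a narrow peak was called. By peaks, 12 of the 339 members (3.54%, 1.84 to 6.10%) and 516 of the 13563 broad peaks (3.80%, 3.49 to 4.14%) overlapped a called gene. These intervals overlapped, and no difference was detectable at these counts. The share of higher genes, 61.5% of 13 (31.6 to 86.1%), spans both the 52.9% of the 482 genes with broad and no narrow peaks and the 61.4% of the whole table.

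The 12 peaks at these genes had scores of 53.2 to 270 with a median of 97.6, and 5 of them scored above the median of all members, 139. The median FPKM of the 13 genes in the authors' deposited table (1 value per genotype with no spread) was 20.9 in fen1 and 14.1 in TWT. Of the 13, 4 also carried a broad peak. The 9 with no other H3K4me3 peak had medians of 8.95 FPKM in fen1 and 14.1 FPKM in TWT, and 5 of these 9 were higher in fen1. Their median log2 fold change was 0.49 and their median length 1673 bp. Genes with broad and no narrow peaks had medians of 22.1 FPKM in fen1 and 19.1 FPKM in TWT. For the 515 genes with no H3K4me3 peak the medians were 8.75 FPKM in fen1 and 5.29 FPKM in TWT. The median log2 fold change of the 13 was 0.58, beside 0.62 over the whole table, and 3 of them changed at least 2-fold (23.1%, 5.04 to 53.8%) beside 40.1% of the table. Genes with broad and no narrow peaks had a median of 0.47, and 19.9% of them (16.4 to 23.8%) changed at least 2-fold. For genes with no H3K4me3 peak these values were 0.89 and 61.4% (57.0 to 65.6%). The median length of the 13 genes was 2148 bp, with a range of 492 to 4194 bp, beside 1875 bp for genes with broad and no narrow peaks. In whole seedlings a lower level can come from fewer cells that express a gene or from less RNA per cell, and these cannot be told apart. Separate cultures are not named for the 2 RNA libraries of each genotype, so the authors' q-values may reflect technical spread.

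The narrow peak covered the annotated start of 6 of the 13 genes, and all 6 were higher in fen1. It lay off the start of 7 genes, of which 2 were higher and 5 lower. This split rests on short distances. In 3 of the 5 lower genes, AT5G62360, AT3G50140 and AT4G19430, the peak began only 25, 43 and 63 bp after the start, and 1 of the 2 higher genes, AT2G41640, was reached by only 17 bp of a peak at its neighbour. With a peak within 100 bp of the start counted as at it, a setting added after the values were seen, 6 of 9 genes with the peak at the start were higher (66.7%, 29.9 to 92.5%) and 2 of 4 with it elsewhere (50%, 6.76 to 93.2%). With broad peaks 222 of 431 genes with a covered start were higher (51.5%, 46.7 to 56.3%), and 33 of 51 genes whose broad peaks missed the start (64.7%, 50.1 to 77.6%). The split among the 13 was seen after the positions and directions were known and has no test. Broad peaks covered the start in 433 of 518 pairs of gene and peak (83.6%, 80.1 to 86.7%), narrow peaks in 6 of 13 (46.2%, 19.2 to 74.9%). A wider peak is more likely to cover a given point and the rule set the width, so this contrast is a description only. With the limit of 100 bp, the narrow peak was at the start of 9 genes and elsewhere in 4. Broad peaks were then at the start of 442 genes and elsewhere in 40.

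**Figure D4:**
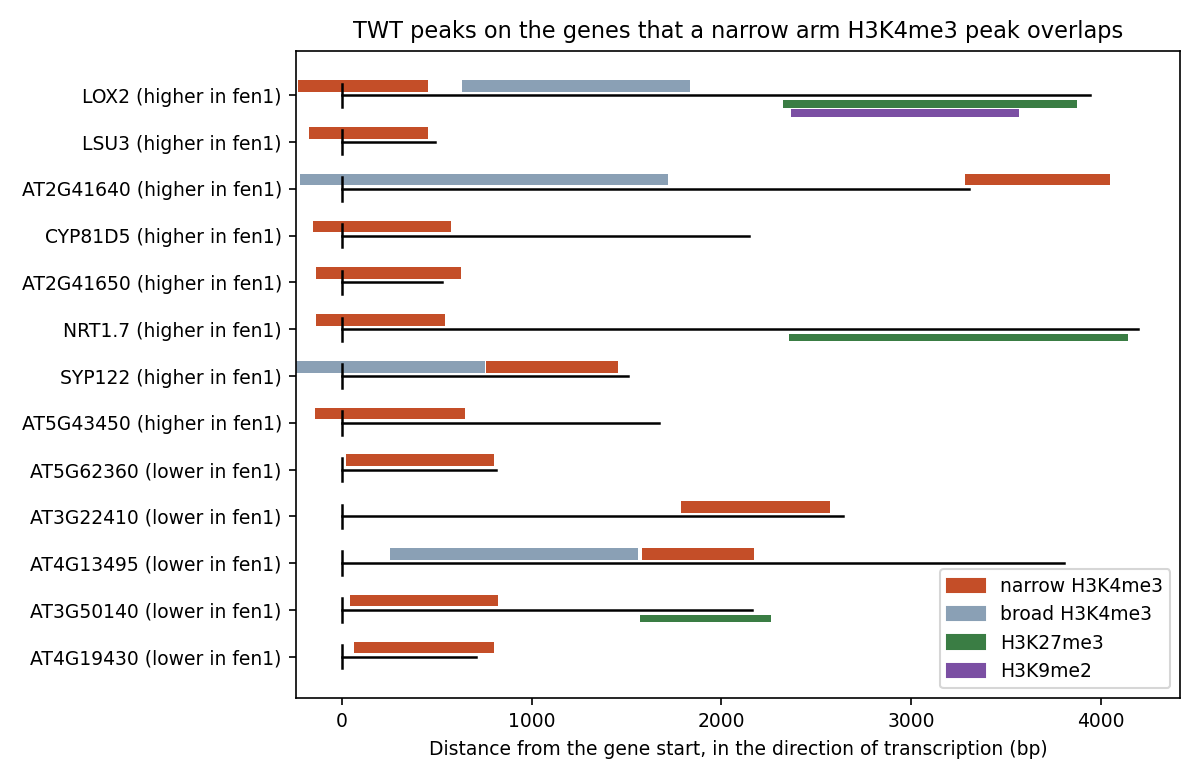
Peaks of the TWT libraries on the 13 genes that a narrow arm H3K4me3 peak overlaps, drawn by distance from the annotated gene start in the direction of transcription (x axis, bp), with gene bodies as black lines and genes in order of log2 fold change. The narrow peak covers the start of 6 genes, all higher in fen1, and misses the start of the 5 lower genes, in 3 of them by 25 to 63 bp.

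Among the 6 genes with a narrow peak over their start, LOX2 had the highest level in fen1 and the largest rise. LOX2 encodes lipoxygenase 2, a chloroplast enzyme of jasmonate synthesis (AT3G45140, chromosome 3, 16525410 to 16529352, TAIR10). The authors' deposited table gave 328 FPKM in fen1 and 104 FPKM in TWT (log2 fold change 1.66, q = 0.00173). Its narrow peak, 687 bp with a score of 144, ran from 230 bp before the start to 456 bp after it. A broad peak of 1205 bp and a score of 739 followed 175 bp further on, so the higher-scoring H3K4me3 peak of LOX2 lay inside the gene. The last part of LOX2 carried an H3K27me3 peak (score 148) and an H3K9me2 peak (score 85.1), and its bin, with an H3K9me2 cover of 9.08%, was the one nearest to the ceiling of the rule among the 13 genes.

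LSU3, a gene of the low-sulfur response family, is the shortest of the 13, at 492 bp (AT3G49570, chromosome 3, 18372533 to 18373024). It had, by the authors' deposited table, 52.6 FPKM in fen1 and 27.9 FPKM in TWT (log2 fold change 0.92, q = 0.00173). Its narrow peak of 630 bp had the highest score of the 12, 270, and reached from 175 bp before the start to 454 bp after it, which is nearly the whole gene. The next gene in the reference order is its family member LSU1, and the sources used here do not give how reads of similar genes were divided.

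NRT1.7, a nitrate transporter that moves nitrate out of older leaves (AT1G69870), is the longest of the 13, at 4194 bp. The authors' deposited table gave 47.3 FPKM in fen1 and 31.5 FPKM in TWT (log2 fold change 0.59, q = 0.00173). A narrow peak of 681 bp and a score of 110 was its only H3K4me3 peak, with the next one 7032 bp away. An H3K27me3 peak of 1789 bp (score 168) lay over its distal part, from 2356 to 4144 bp after the start, and did not touch the narrow peak.

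AT2G41650, a short gene of 528 bp with no description in the table, had the highest level among genes with a narrow peak alone. It had, by the authors' deposited table, 77.4 FPKM in fen1 and 51.4 FPKM in TWT (log2 fold change 0.59, q = 0.00943), with a peak of 765 bp and a score of 84.7 that covered the entire gene. The same peak reached 17 bp into the end of the gene before it, AT2G41640, a glycosyltransferase family 61 gene. That gene had a broad peak of its own over its start, with a score of 1039, and the authors' deposited table gave it 4.02 FPKM in fen1 and 2.52 FPKM in TWT (log2 fold change 0.67, q = 0.0362). With at least 50% of the peak required to lie in the gene, AT2G41640 drops out.

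The other 2 genes with a narrow peak over the start encode members of large enzyme families. CYP81D5, a cytochrome P450 gene between CYP81H1 and CYP81D4 in the reference order, had, by the authors' deposited table, 5.50 FPKM in fen1 and 3.46 FPKM in TWT (log2 fold change 0.67, q = 0.0385). Its peak was 728 bp wide with a score of 162. AT5G43450, of the superfamily of 2-oxoglutarate and iron-dependent oxygenases, had, by the authors' deposited table, 22.9 FPKM in fen1 and 16.3 FPKM in TWT (log2 fold change 0.49, q = 0.0287). Its peak, 793 bp with a score of 247, was its only H3K4me3 peak. Members of both families have close relatives nearby or elsewhere, so their levels are less certain.

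In 2 genes the narrow peak sat directly behind a broad one inside the gene. SYP122 encodes a plasma membrane syntaxin that acts in secretion and defence (AT3G52400). Its broad peak over the start scored 2067, and the narrow peak of 700 bp and a score of 153 began after a gap of only 1 bp and ran on to 1458 bp of the 1508 bp gene. SYP122 had, by the authors' deposited table, 20.9 FPKM in fen1 and 13.98 FPKM in TWT (log2 fold change 0.58, q = 0.00943). AT4G13495 is annotated as other RNA, 3808 bp long, and was the most abundant of the 13 in TWT. The authors' deposited table gave 106 FPKM in fen1 and 184 FPKM in TWT (log2 fold change −0.80, q = 0.00173). A broad peak (score 411) and, 21 bp on, the narrow peak of 590 bp (score 53.2) both lay inside it, and neither covered its start. The sources used here do not give whether reads were counted by strand, so RNA of an overlapping gene cannot be told apart from AT4G13495.

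The 4 protein-coding genes that fell had a narrow peak as their only H3K4me3 peak, off the annotated start. AT4G19430, a gene of 707 bp with no description in the table, fell most, and the authors' deposited table gave 0.698 FPKM in fen1 and 5.12 FPKM in TWT (log2 fold change −2.87, q = 0.0139). On the log2(FPKM + 1) scale its change was −1.85. Its peak, 738 bp with a score of 53.6, began 63 bp after the start and ran past the end. AT3G50140, of a plant family of unknown function (DUF247), was low in both genotypes, and the authors' deposited table gave 0.829 FPKM in fen1 and 1.87 FPKM in TWT (log2 fold change −1.18, q = 0.0217), or −0.65 on the log2(FPKM + 1) scale. Its peak began 43 bp after the start, and an H3K27me3 peak (score 71.4) lay at its end. In the reference order it stands between AT3G50130 and AT3G50150.

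AT5G62360, a gene of the invertase and pectin methylesterase inhibitor family, had, by the authors' deposited table, 8.95 FPKM in fen1 and 14.1 FPKM in TWT (log2 fold change −0.66, q = 0.0310). Its peak of 777 bp, with a score of 83.0, began 25 bp after the start and filled nearly all of its 814 bp. AT3G22410, a Sec14-like lipid transfer gene, had, by the authors' deposited table, 4.00 FPKM in fen1 and 6.37 FPKM in TWT (log2 fold change −0.67, q = 0.0235). It differed from the other lower genes in that its peak, 784 bp with a score of 66.7, lay at its far end, centred 82.5% of the way along the gene, with the next H3K4me3 peak 12279 bp away. In the reference order the gene on that side is LOX5, another lipoxygenase gene.

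**Figure D5:**
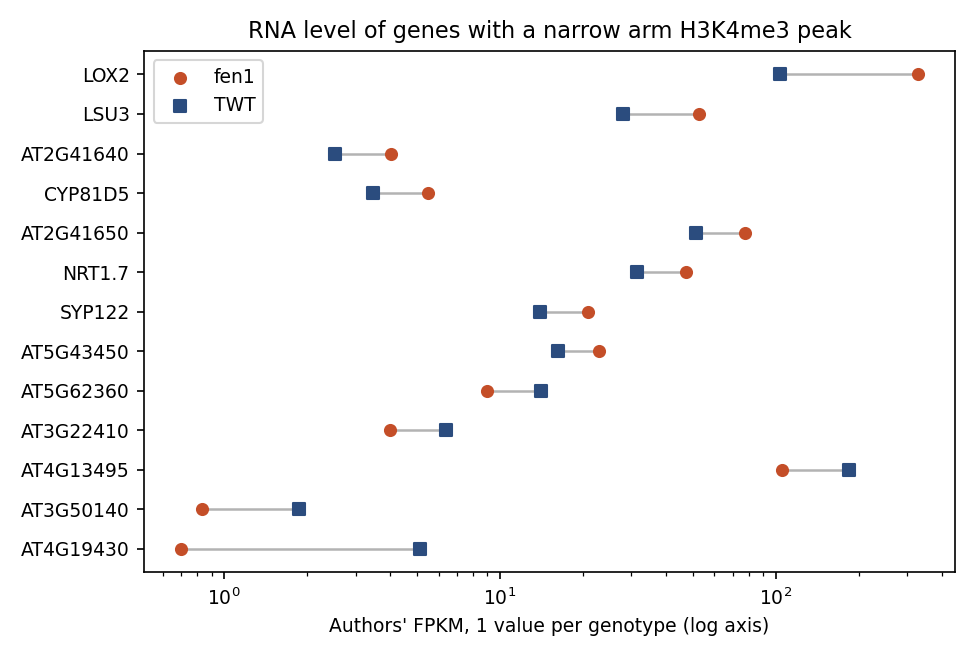
Level of the 13 genes with a narrow arm H3K4me3 peak in the authors' deposited table (x axis, FPKM, log axis, 1 value per genotype with no error bars), fen1 as circles and TWT as squares, in order of log2 fold change. LOX2 reaches 328 FPKM in fen1 and 104 FPKM in TWT, and AT4G19430 0.698 FPKM in fen1 and 5.12 FPKM in TWT.

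A further 7 called genes, chosen after their values were seen, had a narrow arm peak within 1000 bp without overlap. All 7 were higher in fen1 (exact interval 59.0 to 100%), beside 61.4% of the whole table and 156 of the 241 called genes that lay as near to a broad arm peak (64.7%, 58.3 to 70.8%). CRA1, AT1G50060 and AT3G26440 had no H3K4me3 peak on the gene, and of all called genes in that state 70.7% were higher (66.5 to 74.6%). The table holds called genes only, so each of the 7 passed the authors' test by construction, and the count has no test. CRA1, which encodes the seed storage protein cruciferin, had no H3K4me3 peak on its body, and a narrow peak with a score of 65.1 lay 395 bp after its end. It had, by the authors' deposited table, 12.0 FPKM in fen1 and 2.61 FPKM in TWT (log2 fold change 2.203, q = 0.00173). AT1G50060, of the family of cysteine-rich secretory proteins, also had none on its body and a narrow peak with a score of 264 that ended 935 bp before its start. The authors' deposited table gave it 17.1 FPKM in fen1 and 6.43 FPKM in TWT (log2 fold change 1.41, q = 0.00173). CHIL, a chalcone isomerase-like gene of flavonoid synthesis, had 1 H3K4me3 peak on its body. The narrow peak lay 195 bp before its start, and the authors' deposited table gave a log2 fold change of 0.43. The others were AT3G26440, with no H3K4me3 peak on its body, and SOUL-1, CORI3 and KP1, with 1 each. Their log2 fold changes were 0.51 to 0.87 in the authors' deposited table. Within 5000 bp of a called gene lay 43 members (12.7%) and 1816 broad peaks (13.4%).

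The 10 gene lists name 181 genes, of which 50 were called and therefore had a position. The other 131, among them all 12 circadian clock genes, could not be set against the peaks. A narrow arm peak lay on 0 of the 50. Over the whole table it lay on 13 of 1114 genes (1.17%), a share at which 50 genes would hold 0.583, so the count of 0 says nothing of the lists. A broad arm peak lay on 24 of the 50, beside 486 of the 1114 genes of the table (43.6%).

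The calls per list are read beside the 5.53% of all tested genes that were called, 3.40% higher and 2.14% lower. The lists were chosen with earlier results of these data known, so their counts are a description. Of the DNA damage response list, 16 of 31 genes were called, all higher, and 9 of the 16 carried a broad peak. Iron deficiency genes, matched by identifier, were called in 12 of 15 cases, 11 higher and 1 lower, with 5 on broad peaks. All 4 called photosynthesis genes of 45, which mark leaf tissue, were lower and carried a broad peak. Root markers (2 of 7 called) and seed markers (3 of 6 called) were all higher and had no H3K4me3 peak on the gene, a state shared by 515 genes of the table (46.2%). Early auxin response genes gave 5 calls of 17 (1 higher, 4 lower) and salicylic acid and defence genes 5 of 11 (2 higher, 3 lower). DNA replication gave 2 of 20, FEN1 itself and TIL1, and the silencing machinery 1 of 17, all higher.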

How the data were processed

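Each peak list is 1 TWT library. The peak score is the deposited score of the authors' peak caller, whose peak names begin with MACS; the sources used here give no definition of the score and no version, control or settings. The FPKM values, 1 per genotype, are as deposited by the authors, read as FPKM from the layout of the table, since its header names no unit. The log2 fold change (fen1 over TWT, no pseudocount), p-value and q-value are the authors' deposited test, and no test was added to it. TopHat2 2.1.1, Cuffdiff 2.1.1, Bowtie 0.12.9, SAMtools and the TAIR10 build are named, without roles, per the submitters' processing notes.

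Here, starts in the peak lists were made 1-based, H3K9me2 peaks merged and their cover taken per 1 Mb bin, and peaks joined to genes by at least 1 bp of overlap (Python 3.11.15, pandas 2.3.3, SciPy 1.17.1). The last bin of a chromosome is shorter than 1 Mb but was counted as whole. Interval functions were tested on simulated data. A gap is the number of bases between peaks. Shares have exact Clopper-Pearson intervals; peaks are not replicates, so no test compares narrow with broad peaks. Peak scores reach plateaus at 3100 and 3233.06, where they no longer rank peaks.

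Named were all table genes under a narrow peak by rules for change, level, lists and score (which give all 13 here), and genes within 1000 bp, chosen after their values were seen. Symbols and gene order came from a TAIR10.1 table (1113 of 1114 identifiers matched), whose coordinates were not used. The members and lists were chosen with earlier results of these data known. Sequences and promoter motifs were not analysed here.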

Additional observations from a re-analysis of the deposited data

How the results depend on the processing

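The number of narrow arm peaks follows the width limit, with 63 peaks under 600 bp and 1231 under 1000 bp beside 339 under 800 bp, and 213 remained with a score of at least 100. Their median score was 108, 212 and 245 under these 3 settings, and 1.59% of the peaks under 600 bp overlapped a called gene. With a score of at least 100, chosen after seeing the data, 1.24% of arm peaks were narrow at an H3K9me2 cover under 2% and 3.46% at 5 to 14%, beside 2.04% and 5.29% of all. The other 27 of 36 alternatives, among them H3K9me2 ceilings of 10% and 20%, a looser H3K27me3 rule and other overlap and expression limits, moved their value by less than its interval or, for a count, by less than 1.5 times. That says little for the share of higher genes, which ran from 33.3% of 3 genes changed at least 2-fold to 83.3% of 6 genes with q under 0.01, or for the split by gene start, where counting a peak within 100 bp as at the start moved the higher share to 66.7% of 9 genes, beside 100% of 6, and to 50% of 4 genes elsewhere, beside 28.6% of 7.

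No library was left out in turn, since each mark had 1 library and the deposited RNA values are 1 per genotype. No paired analysis was possible because the table combines the libraries of a genotype. Read depth is unknown, which limits what can be said of peaks near the score floor.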
